A study of Mus musculus with 6 samples.

Results

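The AP-1 family described here comprises 10 genes, Fos, Fosb, Fosl1, Fosl2, Jun, Junb, Jund, Batf, Batf3 and Atf3, of the 39089 genes in the deposited gene table. They were selected by gene name, and the family was chosen on earlier results in which the Fos and Fosb counts of these same libraries differed between the groups. Differences between the groups in these 10 genes, their intervals and any call of them in a test over all genes are therefore descriptions, and nothing is supported with them. All 10 names were found, and 8 of the genes passed the filter on low counts; Batf and Batf3 did not.

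AP-1 is a transcription factor made of pairs of leucine zipper proteins. Fos proteins cannot pair with themselves and bind DNA as partners of Jun proteins, while Jun proteins can also pair with each other. Fos, Fosb, Jun, Junb and Atf3 are early response genes, switched on within minutes by growth factors, stress and bacterial products, and their messages are short-lived. In macrophages, AP-1 acts with NF-kB on inflammatory genes, and Fos is needed for precursors to become osteoclasts.

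The cells were RAW264.7, a wild-type mouse macrophage-like line derived from a leukaemia, so every sample is 1 cell line and no primary macrophage was included. All 6 samples received lipopolysaccharide (LPS, a bacterial product) at 100 ng/mL for 48 h. The 3 LPS samples had no further treatment, and 3 LPS with LIPUS samples were also given low-intensity pulsed ultrasound at 45 mW/cm2 for 25 min, 2 times at a 24 h interval. No sample without LPS was analysed, and the time between the last ultrasound session and lysis is not given in the sources used here. The labels do not say whether the replicates were separate cultures, so the spread and the p-values cover only these samples. Libraries are called LPS 1 to 3 and LIPUS 1 to 3 below.

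Libraries held 14171061 to 15956693 counts, with the LPS libraries deeper (14984236 or more) than the LIPUS libraries (14632288 or fewer). All 10 macrophage markers passed the filter, Lyz2, Adgre1, Cd68, Csf1r and Spi1 among them. Their summed level was 11530 to 11985 CPM (counts scaled to a common library size with the TMM factors of edgeR) in LPS and 10821 to 12402 CPM in LIPUS libraries. Lyz2 alone averaged 8040 CPM, so this sum mostly describes Lyz2, while Cd86 averaged 2.68 CPM. Of 19 markers of other cell types 9 had no count at all, including Epcam, Ms4a1, Cd3g and Cdh5, and the 19 together gave 2.89 to 4.05 CPM in LPS and 2.27 to 3.13 CPM in LIPUS libraries. In RNA from whole cultures, fewer cells expressing a gene and less RNA per cell cannot be told apart.

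Upstream sequence is shown for Fos, Fosb and Jun, whose levels spread most between the libraries among the 8 tested members. Each run is the 250 bases before the RefSeq transcript start (build GRCm38), 5′ to 3′ on the gene's strand, and capitals mark matches to the motifs searched. For Fosb the RefSeq start used, at 19310045, lies inside the deposited gene, which ends at 19310118.
Fos, chr12:85473640-85473889, plus strand: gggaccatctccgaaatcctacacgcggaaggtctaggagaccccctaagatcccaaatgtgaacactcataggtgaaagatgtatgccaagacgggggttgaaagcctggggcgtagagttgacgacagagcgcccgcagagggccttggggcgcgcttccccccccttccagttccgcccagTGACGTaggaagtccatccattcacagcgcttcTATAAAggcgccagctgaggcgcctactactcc
Fosb, chr7:19310046-19310295, minus strand: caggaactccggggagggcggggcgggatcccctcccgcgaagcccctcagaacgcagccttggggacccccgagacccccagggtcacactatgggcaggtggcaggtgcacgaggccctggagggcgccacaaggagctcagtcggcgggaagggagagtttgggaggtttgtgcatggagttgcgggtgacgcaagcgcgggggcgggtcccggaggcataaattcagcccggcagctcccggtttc
Jun, chr4:95052223-95052472, minus strand: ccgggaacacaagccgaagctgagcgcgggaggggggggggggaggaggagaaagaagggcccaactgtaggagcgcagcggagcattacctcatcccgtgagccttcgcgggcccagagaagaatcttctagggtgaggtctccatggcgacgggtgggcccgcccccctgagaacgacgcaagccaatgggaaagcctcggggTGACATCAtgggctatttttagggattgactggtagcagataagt

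The motifs were the AP-1 site TGANTCA, the CRE-like site TGACNTCA, the short CRE core TGACGT and the CArG box of serum response factor, each on both strands, and the TATA box TATAAA on the gene's strand. The CRE-like site can contain the short core. Counting the first transcribed base as +1, with no position 0, the Fos window held the short CRE core at -66 and TATAAA at -33, and the Jun window a CRE-like site (TGACATCA) at -45. The Fosb window held none of the 5 motifs. Of the other members, 6 had a window: Batf and Atf3 each held a short CRE core, at -98 and -8, and Fosl2, Junb, Jund and Batf3 held no match. Over 32851 windows of the same length, the short CRE core was in 6.47%, the CRE-like site in 7.49%, TATAAA in 7.59%, the AP-1 site in 6.75% and the CArG box in 1.47%. A match describes letters only, and the windows do not reach the more distant elements of these genes.

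Per length, Junb and Fos gave the most abundant messages of the family. Levels between genes are compared in the deposited TPM, which divides by gene length. Junb, whose protein is a Jun partner that often restrains cell growth, had a median of 405.7 TPM over the 6 libraries (range 320.5 to 444.7), more than 97.5% of tested genes by its mean. Fos had a median of 277.4 TPM (170.05 to 475.8). Jund, the steadily expressed Jun gene, followed at 168.0 TPM (140.8 to 177.2), then the stress-induced Atf3 at 139.6 TPM (120.6 to 155.3), Fosl2 (which encodes Fra-2) at 121.3 TPM (110.04 to 130.4) and Jun at 115.4 TPM (94.4 to 154.3). Fosb was far lower at 19.2 TPM (5.90 to 45.4), and Fosl1 (Fra-1) had 7.62 TPM (6.28 to 9.54).

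Batf3 and Batf, whose proteins pair with Jun and have roles in dendritic and T cells, had medians of 0.789 and 0.749 TPM. From Junb down to Jun, the ranges of neighbouring genes in this order overlapped, as did those of Fosb and Fosl1 and of Batf3 and Batf. Jun lay above Fosb in 6 of 6 libraries with no overlap, and Fosl1 above Batf3 likewise. Fos exceeded Junb in LPS 3 alone.

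**Figure D1:**
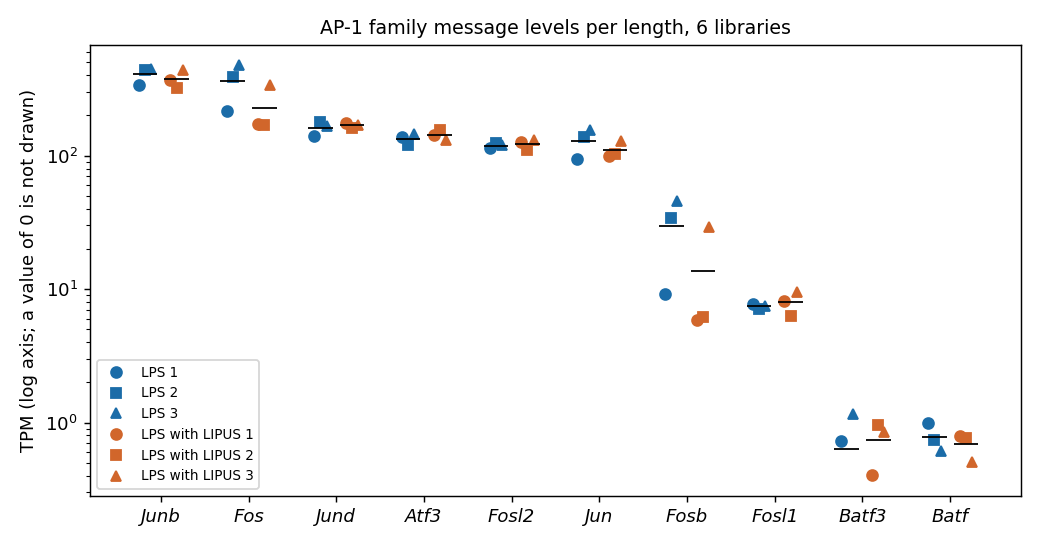
TPM (log axis) of the 10 AP-1 genes, ordered by median, with 1 point per library and a bar for each group's mean (n = 3). The 6 upper genes lie between 94.4 and 475.8 TPM, Fosb spreads from 5.90 to 45.4 TPM, and Batf3 and Batf lie at or below 1.16 TPM; Batf3 in LPS 2 is at 0 and is not drawn.

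Among the Fos genes, Fos and Fosb differed widely between libraries of 1 group while Fosl1 and Fosl2 did not. Fos (chromosome 12, 85473890 to 85477274, plus strand, mm10) had 222 CPM, 388 CPM and 489 CPM in LPS 1, 2 and 3, and 173 CPM, 183 CPM and 326 CPM in LIPUS 1, 2 and 3. LPS 2 and 3 were the highest and LIPUS 1 and 2 the lowest, but LIPUS 3 lay above LPS 1, so the groups overlapped. LPS libraries averaged 367 ± 135 CPM and LIPUS libraries 227 ± 85.6 CPM (SD over 3 libraries). On the log2 scale the LIPUS group lay at -0.69 ± 0.22 relative to LPS (SE from the fit, 95% interval -1.14 to -0.24). Within the LPS group alone, the highest Fos library exceeded the lowest 2.20-fold.

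Fosb (chromosome 7, 19302696 to 19310118, minus strand), which encodes a Fos protein that accumulates as a truncated form under repeated stimulation in neurons, had 17.4 CPM, 62.4 CPM and 85.2 CPM in LPS 1, 2 and 3. It had 10.7 CPM, 12.1 CPM and 50.9 CPM in LIPUS 1, 2 and 3. The 6 libraries fell in the same order as for Fos, LPS 3, LPS 2, LIPUS 3, LPS 1, LIPUS 2 and LIPUS 1 from high to low, so the groups again overlapped through LPS 1 and LIPUS 3. Averages were 55.0 ± 34.5 CPM for LPS and 24.6 ± 22.8 CPM for LIPUS (SD over 3 libraries), which the fit put at a log2 difference of -1.16 ± 0.46 (SE, with a 95% interval of -2.11 to -0.20). The highest library exceeded the lowest 4.90-fold within LPS and 4.74-fold within LIPUS.

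Fosl2 (chromosome 5, 32136472 to 32157840, plus strand) stayed between 328 CPM and 353 CPM in all 6 libraries. Its LPS mean was 337 ± 8.13 CPM and its LIPUS mean 343 ± 12.3 CPM (log2 difference 0.02 ± 0.05). Fosl1 (chromosome 19, 5447698 to 5455938, plus strand) averaged 6.16 ± 0.39 CPM in LPS and 6.48 ± 0.96 CPM in LIPUS libraries (log2 difference 0.07 ± 0.16). It overlaps Ccdc85b on the opposite strand, and whether reads were counted by strand is not given in the sources used here, so the Fosl1 values are uncertain.

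The 3 Jun genes varied less than Fos and Fosb, Jun the most of them and Jund the least. Jun (chromosome 4, 95049036 to 95052222, minus strand), the founding partner of Fos, had 148 CPM, 209 CPM and 239.7 CPM in LPS 1, 2 and 3 and 151 CPM, 167 CPM and 185 CPM in LIPUS 1, 2 and 3. LPS 2 and 3 stood highest and LPS 1 lowest, so the groups overlapped (log2 fold change -0.25 ± 0.11, interval -0.49 to -0.01). Junb (chromosome 8, 84976909 to 84978748, minus strand) had 305 CPM, 385 CPM and 399 CPM against 323 CPM, 301 CPM and 367 CPM, with the same 3 libraries highest as for Fos and Fosb (-0.14 ± 0.08). Jund (chromosome 8, 70697739 to 70700616, plus strand) averaged 225 ± 22.7 CPM in LPS and 232 ± 9.62 CPM in LIPUS libraries (log2 difference 0.04 ± 0.06).

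Atf3 (chromosome 1, 191170296 to 191183333, minus strand), which encodes a stress-induced factor that limits LPS responses in mouse macrophages, did not follow Fos. It had 134 CPM, 113 CPM and 139 CPM in LPS 1, 2 and 3 and 133 CPM, 157 CPM and 117 CPM in LIPUS 1, 2 and 3, so its highest library was LIPUS 2, where Fos was next to lowest (log2 fold change 0.08 ± 0.09). Batf (chromosome 12, 85686720 to 85709087, plus strand) had 7, 5 and 4 counts in LPS and 5, 5 and 3 in LIPUS libraries. Batf3 (chromosome 1, 191098414 to 191108943, plus strand) had 4, 0 and 6 counts against 2, 5 and 4; the count of 0 in LPS 2 allows up to 0.19 CPM, for counting error only. At such counts no difference between groups was detectable for either.

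**Figure D2:**
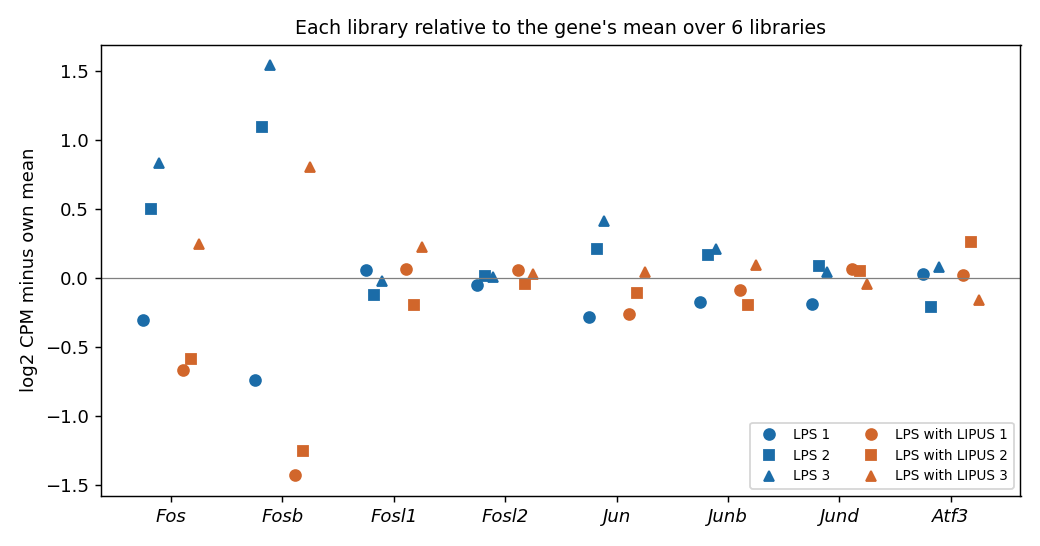
log2 CPM of each library minus the gene's mean over all 6 libraries, for the 8 tested members, with symbols for replicate numbers and colours for groups. Fosb and Fos have LPS 3 and LPS 2 at the top and LIPUS 1 and 2 at the bottom, with LIPUS 3 above LPS 1, and Fosl2 lies close to 0 in every library.

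The spread within groups set the members apart. Fosb had a within-group SD of 1.23 on the log2 scale, larger than in 99.9% of the 12571 tested genes, and Fos 0.55, larger than in 97.6%, where the median gene had 0.11. Jun stood at 0.27 (84.9% of genes smaller), and Atf3, Junb and Fosl1 at 0.18, 0.18 and 0.16. Jund was at the middle of all genes (0.11, 51.3% smaller) and Fosl2 near the bottom (0.04, 8.36% smaller).

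The make-up of the family moved with Fos, which was itself 15.7% (LIPUS 1) to 30.5% (LPS 3) of the family's TPM. Shares and totals that include Fos therefore move with it in part by construction. The 10 genes together gave 1056, 1430 and 1560 TPM in LPS 1, 2 and 3 and 1104, 1033 and 1379 TPM in LIPUS 1, 2 and 3. The 4 Fos genes held 32.7%, 38.6% and 41.5% of this in LPS 1, 2 and 3 and 28.5%, 28.3% and 37.0% in LIPUS 1, 2 and 3. The ratio of Fos to Jun TPM ran from 1.66 in LIPUS 2 to 3.08 in LPS 3, and that of Fosb to Fos from 0.0340 in LIPUS 1 to 0.0955 in LPS 3, so Fosb spread more than Fos. Fosl2, which varied little, stood at 0.251 of Fos in LPS 3 and 0.734 of Fos in LIPUS 1.

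The study asks what ultrasound does to LPS-treated cells. By edgeR's quasi-likelihood test over all genes, 0 of the 8 tested members passed an adjusted p of 0.05, beside 0.00% of all 12571 genes (0 genes; 579 had an unadjusted p below 0.05, and DESeq2 and limma-voom also called 0). The 2 groups overlapped in all 8 members, while 9.70% of tested genes had groups that did not overlap. By point estimate, Fos, Fosb, Jun and Junb were lower with LIPUS and Fosl1, Fosl2, Jund and Atf3 higher. The latter 4 were all within 0.08 of 0 on the log2 scale, and the median absolute log2 fold change of all tested genes was 0.07. The authors' deposited table lists Fosb among 351 changed genes (0.898% of its genes) with a log2 fold change of -1.16, and no other member. That list follows another threshold than the adjusted p used here. Its genes had absolute log2 fold changes of at least 1.01 and unadjusted p-values of at most 0.0496, by a test that is not stated. Fos, at -0.69 in the authors' comparison, lay below the smallest listed fold change, so its absence from the list does not speak to its p-value.

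Single libraries decided the size of the 2 large differences. Without LIPUS 3 the log2 fold change was -1.04 for Fos and -2.26 for Fosb, and both were among the 6 genes then called (0.0470% of genes); such calls restate the differences the family was chosen on. Without LPS 3 they were -0.42 and -0.70, with no member called. Jun ranged from -0.42 without LPS 1 to -0.09 without LPS 3, and Junb from -0.25 to -0.06 for the same libraries. With no filter on low counts 31 genes were called (0.149%), including Fos, Fosb and Jun, and nothing is read from these calls either.

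**Figure D3:**
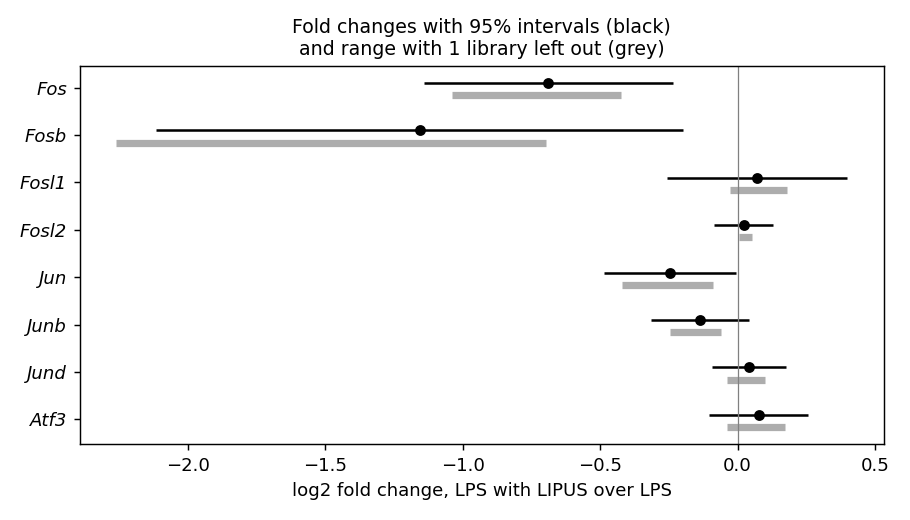
Fold change on the log2 scale, LIPUS relative to LPS alone, of the 8 tested members with its 95% interval in black, and in grey the range when 1 library at a time is left out. Fosb runs from -2.26 to -0.70 and Fos from -1.04 to -0.42, and the other 6 members have values between -0.42 and 0.18.

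Egr1, Ier2 and Dusp1, which are early response genes too, had the library profiles most like that of Fos. The list of 32 other early response genes as a whole summed to 3744 to 4068 CPM in LPS and 3720 to 3997 CPM in LIPUS libraries. Abundant genes weigh most in this sum, so it does not show whether single listed genes followed Fos. Likeness was the root-mean-square distance between log2 CPM profiles over the 6 libraries, each centred on its own mean, among 11010 other genes with a mean of at least 2 CPM; a flat gene lies at 0.56 from Fos. The nearest were Egr1, a zinc finger early response factor (distance 0.15), Ier2, an early response gene (0.24), and Dusp1, which encodes a phosphatase that switches off MAP kinases (0.29). Egr1 had 38.0 CPM, 71.6 CPM and 94.0 CPM in LPS 1, 2 and 3 and 36.0 CPM, 43.4 CPM and 63.7 CPM in LIPUS 1, 2 and 3. As in Fos, LPS 3 and 2 were highest, followed by LIPUS 3. Dusp1 had 100.1 CPM, 141 CPM and 164 CPM against 98.5 CPM, 98.9 CPM and 124 CPM.

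The next 7 lay at 0.31 to 0.33: Eef1akmt1, Klf2, 4933412E12Rik, Efcab8, Msi1, Alms1 and Sla. Apart from Klf2, a Krüppel-like factor gene averaging 18.1 ± 3.13 CPM in LPS and 14.04 ± 2.31 CPM in LIPUS libraries, these had group means of 1.70 to 6.02 CPM, where counting error is large. With a minimum of 10 CPM, Egr1, Ier2, Dusp1 and Klf2 were the 4 that stayed among the nearest 10. Ranked by Pearson correlation, which ignores the size of the swings, only Ier2 and Dusp1 did. Among genes outside the family, Egr1 was also the nearest to Fosb (0.71, where a flat gene lies at 1.18), before Snora31, Ier2, Efcab8 and Cptp. Fos itself was nearer to Fosb (0.63). Within the family, Jun was nearest to Fos (0.34), with 14 of the 11010 genes nearer, followed by Junb (0.41), with 90 nearer. Atf3 (0.65), Fosb (0.63) and Fosl1 (0.57) lay farther from Fos than a flat gene does; Fosb shares the order of the libraries but has wider swings. In 15 of the 11010 genes the 6 libraries fell in exactly the order seen for Fos, and of the other 7 tested members this held for Fosb alone.

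**Figure D4:**
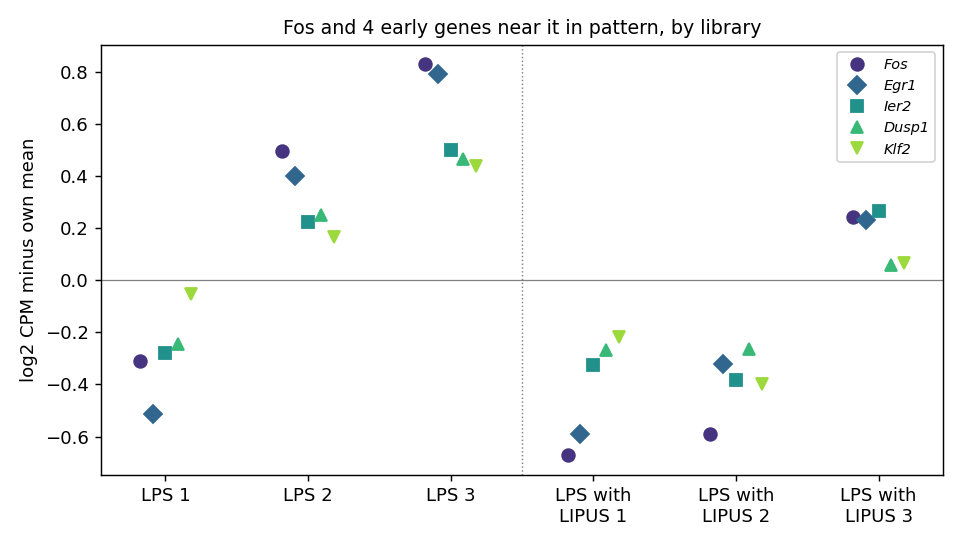
log2 CPM minus the gene's own mean in each library for Fos and the 4 genes near it that stayed among the nearest 10 at a minimum of 10 CPM. All 5 genes are highest in LPS 3 and lowest in LIPUS 1 or LIPUS 2; Egr1, for example, runs from 36.0 CPM in LIPUS 1 to 94.0 CPM in LPS 3.

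In the transcript table, Fosb had 3 forms, Jund 2 of equal length and equal counts, and each other member 1. A read may count for several transcripts there. By the same test 0 of 52257 transcripts passed (0.00%; 2814 had an unadjusted p below 0.05). The 3 Fosb transcripts had log2 fold changes of -1.20 to -1.09.

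The longest and the shortest Fosb transcript differ in length by as much as a known splice event removes. The longer form (3776 bases) encodes full-length FosB, and the shorter one (3636 bases) differs in length by 140 bases. That is the length of the segment of the last exon that a GENCODE M21 transcript, Fosb-206, splices out; removing it brings a stop codon, TGA, directly into frame and gives the truncated protein called delta-FosB. The shorter deposited transcript was matched to this event by length, not by accession. The segment lies at chr7:19305007-19305146 (GRCm38, minus strand) and is shown, because the reads below turn on it, in capitals with 15 bases on each side in lower case.
Fosb spliced segment: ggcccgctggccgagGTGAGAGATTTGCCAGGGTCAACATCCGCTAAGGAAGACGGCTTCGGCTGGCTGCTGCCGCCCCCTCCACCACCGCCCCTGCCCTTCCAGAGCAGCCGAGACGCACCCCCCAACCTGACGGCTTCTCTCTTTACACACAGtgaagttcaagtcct

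Of the reads counted for the longer form, 11.7% of 274 (95% Wilson interval 8.40 to 16.02), 13.9% of 984 (11.9 to 16.2) and 15.9% of 1267 (13.96 to 17.98) were not counted for the shorter one in LPS 1, 2 and 3. In LIPUS 1, 2 and 3 these were 7.01% of 157 (3.96 to 12.1), 8.09% of 173 (4.88 to 13.1) and 11.9% of 739 (9.77 to 14.4). The intervals cover counting error only. By point estimate the libraries with more Fosb had the larger share, in the order LPS 3, LPS 2, LIPUS 3, LPS 1, LIPUS 2 and LIPUS 1. The intervals of neighbours in this order overlapped, so counting error alone leaves the full order uncertain. The share averaged 13.8 ± 2.09% in LPS and 9.003 ± 2.58% in LIPUS libraries (SD over 3 libraries), and the groups overlapped, with LIPUS 3 just above LPS 1. The gene count exceeded that of the longer form by at most 1 read in any library, so at most 1 read counted for the gene was missing from the longer form. How reads were assigned to transcripts is not given in the sources used here, so these shares are not proportions of the 2 messages.

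**Figure D5:**
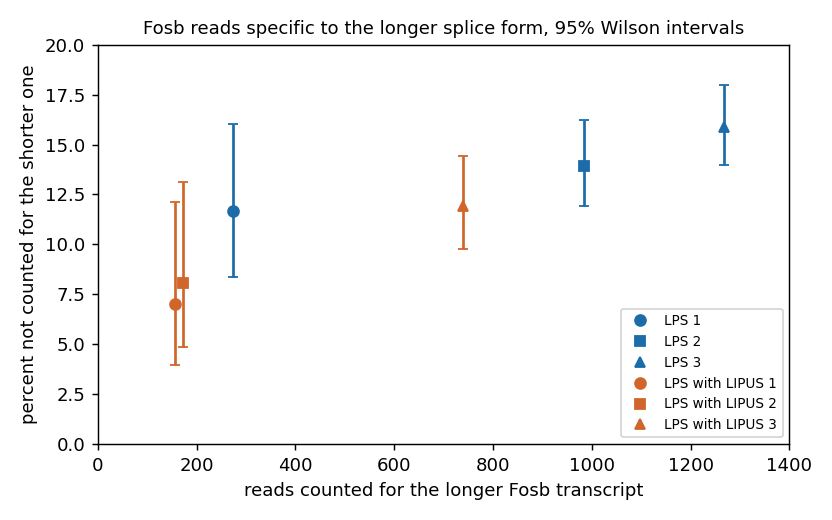
Share of reads counted for the longer Fosb transcript that were not counted for the shorter one, against the number counted for the longer one, with 95% Wilson intervals. The share runs from 7.01% at 157 reads in LIPUS 1 to 15.9% at 1267 reads in LPS 3, and LPS 1 (11.7%) and LIPUS 3 (11.9%) lie together.

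Genes around the family were described from lists, and 0 genes of any list passed the test. Of 37 other leucine zipper genes that can pair with AP-1 or bind related sites, 30 were tested: 15 had higher and 15 lower estimates with LIPUS, and their median log2 fold change was 0.00 beside -0.01 for all tested genes. The smallest p belonged to Cebpe, a granulocyte factor gene, averaging 0.773 ± 0.149 CPM in LPS and 1.59 ± 0.16 CPM in LIPUS libraries (log2 difference 1.02 ± 0.33, adjusted p = 0.814), and the next to Dbp, a clock-controlled factor gene (0.09 ± 0.06, adjusted p = 0.999).

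MAP kinase genes, whose products phosphorylate Jun and switch on Fos, gave 36 tested of 38, 18 in each direction, with a median of 0.00. Mapk14, the p38-alpha kinase gene, averaged 86.7 ± 2.504 CPM in LPS and 79.1 ± 5.12 CPM in LIPUS libraries (log2 fold change -0.13 ± 0.06, adjusted p = 0.999). Of 12 genes for serum response factor, its partners and CREB cofactors, which drive the Fos promoter, all were tested, 8 with a positive fold change and a median of 0.04. Srf stood at 0.08 ± 0.07 and Elk4 at 0.09 ± 0.08 (adjusted p = 0.999 each). The groups did not overlap in 5 of the 36 MAP kinase genes and in 0 of these 12, beside 9.70% of all tested genes.

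Of 32 other early response genes 31 were tested, of which 18 had higher and 13 lower estimates with LIPUS, from -0.51 to 0.35 with a median of 0.02. Klf2 (-0.37 ± 0.13) and Dusp1 (-0.33 ± 0.12) had the smallest p (adjusted p = 0.892 each). Of 34 genes that AP-1 is commonly said to activate, 27 were tested, 13 positive and 14 negative, with a median of 0.00. Hmox1, the haem oxygenase gene, was at -0.13 ± 0.06 and Tnf at 0.11 ± 0.05 (adjusted p = 0.999 each). The groups did not overlap in 3 genes of each of these lists (3 of 31 and 3 of 27), beside 9.70% of all tested genes.

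Of 17 genes whose products modify, degrade or cofactor Fos and Jun proteins, all were tested, and 15 had a negative fold change, where 6587 of all 12571 did. The median was -0.04 and the range -0.28 to 0.19; Nlk, a kinase gene, stood at 0.19 ± 0.10 and Men1, which encodes the Jund-binding protein menin, at -0.09 ± 0.07 (adjusted p = 0.999 each). Of 10 osteoclast markers 9 were tested, 8 of them lower with LIPUS by point estimate, beside 6587 of all 12571 genes. Their median was -0.02, beside -0.01 for all tested genes. Dcstamp stood at -0.20 ± 0.11 and Ocstamp, averaging 2.04 CPM in LPS and 1.54 CPM in LIPUS libraries, at -0.41 ± 0.28. Of the 10 macrophage markers 7 had lower point estimates with LIPUS (median -0.03, range -0.19 to 0.09). Of the 3 tested markers of other cell types, Col1a1 was at -1.34 ± 0.46 on 52 counts in all LPS and 19 in all LIPUS libraries, and S100a8 at 0.49 ± 0.36 (adjusted p = 0.890 and 0.999). Col1a1 passed the filter through the LPS libraries alone (0.699, 1.58 and 1.08 CPM, against 0.612, 0.210 and 0.482 CPM in LIPUS). Its fold change is therefore partly set by the filter, and nothing is read from it.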

How the data were processed

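The 6 libraries, 3 per group, were made from poly(A)-enriched RNA and were grouped by their titles. Per the labels' protocols, RNA was fragmented, libraries were made with an NEBNext Ultra kit and sequenced from both ends; the submitters' processing notes name bcl2fastq and mm10. The sources used here do not give the aligner, counter, annotation release or strand setting. The authors deposited raw counts per gene and per transcript and TPM values, per the file headers. Their comparison tables hold a normalised count (a signal scaled per library), a log2 fold change and an unadjusted p-value, per the file headers, with the test not stated.

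From the counts, edgeR 4.0.16 in R 4.3.3 gave TMM-scaled CPM and its quasi-likelihood test (group only, two-sided, minimum count 10 in filterByExpr, Benjamini-Hochberg over 12571 genes, threshold 0.05), which was tested on simulated data. log2 CPM used a prior count of 2. Fold changes and standard errors of members come from this fit. The members, the gene lists and the tests were chosen with earlier results of these data known. Beyond the members, the text names the 10 genes nearest to Fos and 5 nearest to Fosb, from each list its 2 genes of smallest p (1 of them is not reported here), and macrophage markers; Epcam, Ms4a1, Cd3g and Cdh5 were named after their values were seen. Alternatives used DESeq2 1.42.0, limma 3.58.1 on counts and on TPM, other scalings and filters, a replicate block and leaving out each library. Promoter windows are RefSeq's (GRCm38.p6, found for 9 of 10 members), and Fosb exons are GENCODE M21's, on the same assembly as mm10. Protein sequences were not used here.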

Additional observations from a re-analysis of the deposited data

How the results depend on the processing

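The 120 member fold changes recomputed under the alternatives all moved by less than 1 within-group SD of the gene. That measure is widest for the genes that spread most (1.23 for Fosb). Leaving out 1 library can hardly exceed it, so it does not show stability. With 1 library left out, Fosb ran from -2.26 to -0.70 and Fos from -1.04 to -0.42. Of the 120, 4 near 0 changed sign: Fosl1 without LIPUS 3 (-0.03), Jund without LPS 1 (-0.04), and Atf3 without LPS 2 (0.00 after rounding) and without LIPUS 2 (-0.04). The count of genes past the threshold was 0 with DESeq2, RLE or upper-quartile scaling, limma-voom, limma-trend with a TPM pseudocount of 1 or 0.1, and the filter of 1 CPM in 3 libraries. It was 31 with no filter on low counts, where 20780 genes were tested, and 0 to 6 when 1 library was left out: 2 without LPS 1, 3 without LIPUS 2 and 6 without LIPUS 3. Transcripts past the threshold numbered 242 with no filter, and 0 to 10 when 1 library was left out (10 without LIPUS 2 and 10 without LIPUS 3). With the replicate number as a block, 5 of 12571 genes (Fos and Fosb among them) and 11 of 52257 transcripts passed. The calls of Fos and Fosb restate the differences the family was chosen on, and nothing is read from them. The labels state no pairing, and the correlations of deviations between same-numbered libraries over all tested genes were 0.01, -0.07 and 0.01. The numbers were therefore not taken to pair the samples. Correlations over all genes cannot decide this for a few genes that vary widely, such as Fos and Fosb. Of the 10 genes nearest to Fos, 10 were kept with RLE scaling, 4 at a minimum of 10 CPM and 2 by Pearson correlation. The cause of these changes was not tested. Depth limits Batf and Batf3, with 29 and 21 counts over all libraries.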
